A study of Mus musculus with 4 samples.

Results

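Long noncoding RNAs that neural cells are known to use were followed in cultured cortical neural stem cells of mouse embryos. The genes were taken as a fixed set of 8 autosomal symbols, Malat1, Neat1, Miat, Rmst, Sox2ot, Gas5, Snhg1 and Snhg11, and a gene counted as a member where its symbol alone filled the gene field of a table entry. By that rule 7 of 26815 entries were members. Sox2ot shares its entry with the microRNA gene Mir1897, so its values stand beside the members and are not counted with them.

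The cells were purchased CD-1 cortical stem cells of stage E14.5, kept as a monolayer on poly-L-ornithine and laminin with EGF and bFGF. Each culture received a lentivirus with 1 hairpin, either the scrambled SHC002 or the Foxp1 hairpin pLKO.1_sh_ex15, and all cultures were selected with puromycin at 0.5 µg/mL. The 4 libraries are 2 per hairpin, from different passages, and every group rests on a single hairpin sequence. The values came as 1 contrast of pooled conditions coded q1 and q2, which no label or header ties to a hairpin, so each difference reads as q2 relative to q1. Levels per library or per condition were not used, the spread between replicates cannot be printed, and sequencing depth is unknown.

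Long noncoding RNAs are transcripts that are not translated into protein and act as RNA, often in the nucleus. Malat1 concentrates in nuclear speckles, where splicing factors are stored, and Neat1 is the scaffold of paraspeckles. Miat, also named Gomafu, forms its own nuclear domains and binds splicing factors, while Rmst and Sox2ot are linked to the stem cell factor Sox2. Gas5, Snhg1 and Snhg11 are host genes, whose introns carry small nucleolar RNAs. The spliced RNAs of Gas5 and Snhg1 are known to be degraded on ribosomes by nonsense-mediated decay.

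Foxp1, the targeted gene on chromosome 6 (98925342 to 99435345), had a q2 value 4.09-fold below q1 according to the authors' deposited table (q = 0.00162 by Cuffdiff). Among the members, Miat and Malat1 were lower in q2 and 0 were called higher. Miat stood 4.26-fold and Malat1 1.70-fold below q1 according to the authors' deposited table. Gas5 and Snhg1 were tested and not called, and Neat1, Rmst and Snhg11 were not tested by the authors. Thus 2 of the 4 tested members were called lower at a Cuffdiff q under 0.05, beside 3.39% of all tested entries called lower, 4.24% called higher and 7.63% called in either direction. With 4 tested genes that were picked with earlier results known, the share carries no test.

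**Figure D1:**
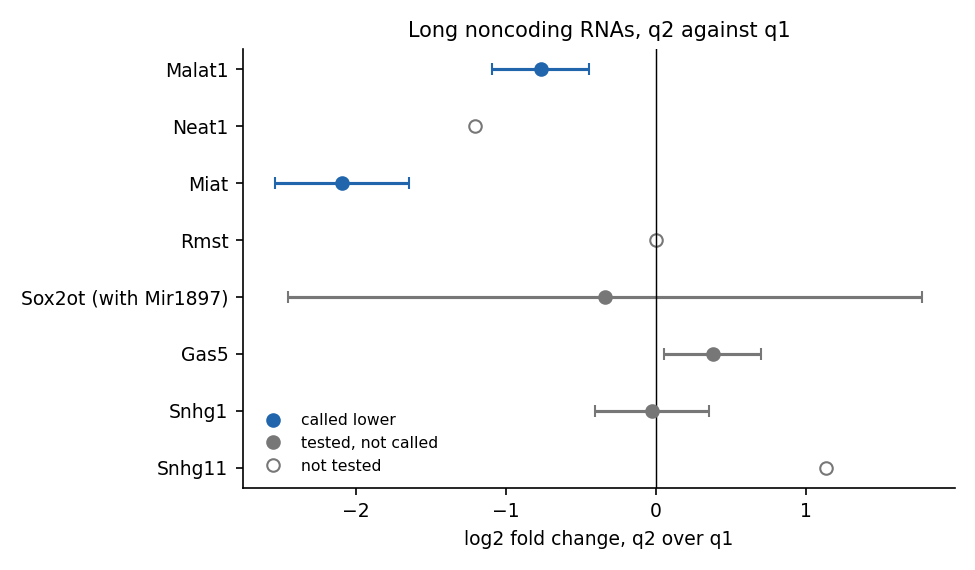
The 8 genes (y axis) by their log2 ratio of q2 to q1 (x axis), as the authors' deposited table gives it. Bars on tested genes are the implied error, that ratio divided by its statistic; Miat at -2.09 and Malat1 at -0.77 are called lower (blue), Gas5, Snhg1 and the joint Sox2ot entry are tested and not called (grey), and open circles were not tested.

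Miat carries copies of the heptamer TACTAAC (written as DNA), which matches the intron branch site that the splicing factor SF1 recognises and holds the core of the element bound by the QKI protein. The stretches below show where those copies sit, since Miat had the largest difference of the tested members. In a GENCODE M21 transcript of Miat with 8758 bases, 6 copies lie in 2 clusters of 3, all in exon 7 of 7. On GRCm38, minus strand, the clusters are at chr5:112217299-112217470 and chr5:112216742-112216822, at transcript positions 4518 to 4689 and 5166 to 5246, written 5′ to 3′ with the heptamers in capitals.
Miat, first cluster: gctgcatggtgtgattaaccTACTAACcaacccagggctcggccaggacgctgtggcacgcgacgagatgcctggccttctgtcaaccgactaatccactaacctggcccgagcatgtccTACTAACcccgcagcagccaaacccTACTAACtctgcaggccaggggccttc
Miat, second cluster: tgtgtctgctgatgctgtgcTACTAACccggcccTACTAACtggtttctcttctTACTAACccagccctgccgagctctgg
Of 55341 genes with a GENCODE transcript, 4.57% had the heptamer at least once in their longest transcript and 0.313% at least 2 times, counted on the transcript strand. Only 1 gene had more copies than Miat, whose longest transcript of 9163 bases holds 0.655 per kilobase. Neat1 had 1 copy in 20771 bases, and the longest transcripts of the other 6 genes had 0.

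Malat1 ends in a way that differs from messenger RNA. Its mature 3′ end is cut by RNase P behind an adenine-rich tract written in the genome, which folds with upstream uridine-rich runs into a triple helix, and no poly(A) tail is added. The tract is shown because these libraries were selected for runs of adenine. In the GENCODE transcript of 6983 bases, with exon 1 of 1, the longest adenine run is 12 bases, within chr19:5795968-5796119 on the minus strand of GRCm38, and is given in capitals.
Malat1, tract near the mature end: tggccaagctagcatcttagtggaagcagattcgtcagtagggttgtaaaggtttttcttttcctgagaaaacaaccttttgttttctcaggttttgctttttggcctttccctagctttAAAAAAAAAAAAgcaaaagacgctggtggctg
The runs of t ahead of the capitals belong to that fold, and 298 annotated bases follow the capitals.

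The 2 called members have these promoters in the RefSeq table for GRCm38.p6, from 250 bases before to 50 after the start, both on the minus strand. Capitals mark TGTTTA on either strand, the core of forkhead sites, searched because the targeted gene encodes a forkhead factor. The Malat1 window is chr19:5802623-5802922 and the Miat window chr5:112228899-112229198.
Malat1 promoter: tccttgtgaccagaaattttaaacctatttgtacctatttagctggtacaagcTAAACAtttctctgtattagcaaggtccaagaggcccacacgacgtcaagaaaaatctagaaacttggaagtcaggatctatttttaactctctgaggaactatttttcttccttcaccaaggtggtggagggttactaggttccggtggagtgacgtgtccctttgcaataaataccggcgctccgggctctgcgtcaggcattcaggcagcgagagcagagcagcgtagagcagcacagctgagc
Miat promoter: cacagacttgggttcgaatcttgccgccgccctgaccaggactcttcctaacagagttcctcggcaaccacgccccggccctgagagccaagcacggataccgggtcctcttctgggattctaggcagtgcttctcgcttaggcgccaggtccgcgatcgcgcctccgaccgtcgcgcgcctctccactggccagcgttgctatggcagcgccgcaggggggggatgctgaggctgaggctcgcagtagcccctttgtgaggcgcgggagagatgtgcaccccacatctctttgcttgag
The core occurred 1 time in the Malat1 window, at position -197 from the start, and 0 times in the Miat window. It was present in 13.4% of the 32851 promoters of the table. The windows of Gas5, Snhg1 and Snhg11 held 0 as well, and these letters alone are not evidence of binding.

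Gas5 and Snhg1 belong to the class of RNAs whose start is a pyrimidine tract, the sequence through which growth signals control translation. The first 25 bases of a GENCODE transcript of Gas5 (chr1:161035166-161035190) and of Snhg1 (chr19:8723487-8723511), both on the plus strand and in exon 1, are shown with the leading pyrimidines in capitals.
Gas5 start: CTTTCggagctgtgcggcattctga
Snhg1 start: CTCatttttccttgttcggggtaag
The leading run is 5 bases in the annotated Gas5 transcript and 3 in that of Snhg1, and it depends on which start the annotation gives.

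For Miat (chromosome 5, 112213228 to 112228948) the authors' deposited table lists a log2 fold change of -2.09 and a Cuffdiff q of 0.00162. Dividing it by its statistic of -4.69 from the authors' deposited table gives the implied error, 0.45 on the log2 scale. Its p of 5e-05 is the smallest the table holds, shared by 472 entries. Of all tested entries with a finite value, 1.13% had a lower log2 fold change than Miat. Its call held in every alternative that was run, with log2 fold changes from -2.33 with the GC trend removed to -2.01 with the length trend removed.

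For Malat1 (chromosome 19, 5795690 to 5802671) the log2 fold change listed by the authors' deposited table is -0.77, with a Cuffdiff q of 0.0157 and an implied error of 0.32. Of all tested entries with a finite value, 9.01% lay lower than Malat1. With the trend of fold change with transcript GC content removed, Malat1 went to -0.49 and lost its call (Benjamini-Hochberg q = 0.227). A normal distribution of the authors' statistic also ended it (q = 0.291), as did a threshold of 0.01 and a minimum log2 change of 1.

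Neat1 is the neighbour of Malat1 on chromosome 19, and its entry runs from 5842302 to 5845478. That is 3177 bases against 20773 for the whole gene in RefSeq, so the entry covers the 5′ part that both Neat1 isoforms share and not the long form that builds paraspeckles. The entry stood at -1.21 in the authors' deposited table, the same sign as Malat1 and Miat, and was not tested by the authors. Cuffdiff leaves a locus untested when it has too few aligned reads, so this value comes without an error.

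Gas5 (chromosome 1, 161035166 to 161038537), a growth-arrest RNA that also binds the glucocorticoid receptor, has 0.38 and a Cuffdiff q of 0.368 in the authors' deposited table. Its implied error was 0.32, and 1.96 times that error on either side spans -0.26 to 1.01. Snhg1 (chromosome 19, 8723487 to 8726326) has -0.03 and a Cuffdiff q of 0.974 in the authors' deposited table, with a span of -0.77 to 0.72. The Gas5 span holds, in 1 direction, a change of the size seen for Malat1, and the Snhg1 span only just reaches it. The factor of 1.96 assumes a normal distribution, which the Cuffdiff p-values do not follow. The host gene Snhg8, at a statistic of -1.42, had a Cuffdiff p of 0.051. By such p-values the spans would be narrower, so the reading for Snhg1 depends on the factor. A missed threshold does not show that these RNAs were equal. The sign of Snhg1 turned under centring and under both trend corrections, to 0.023, 0.050 and 0.26, without a call.

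Snhg11 (chromosome 2, 158375638 to 158386145), a host gene of neurons, stood at 1.13 and Rmst (chromosome 10, 92081746 to 92165178) at 0 in the authors' deposited table, both untested. A value of exactly 0 was shared by 6842 of the 11500 untested entries, so the 0 of Rmst is no measured equality. The joint entry of Sox2ot and Mir1897 (chromosome 3, 34560381 to 34677993) was tested, with -0.34 and a Cuffdiff q of 0.925 in the authors' deposited table. Its implied error of 2.12 is several times that of any tested member. Sox2, the stem cell factor whose gene lies inside the Sox2ot locus, was at 0.04 in the authors' deposited table with an implied error of 0.32. Sox2 and Sox2ot also share 1 locus, with strand use not stated.

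Apart from Malat1 beside Neat1, no tested flanking gene was called, where 7.63% of all tested entries were called in either direction. With 14 neighbours, 0 calls lies close to that share and says little about these loci. Cuffdiff gave 0 calls and 0 unadjusted p under 0.05 for the 14 distinct tested neighbours that are not of the set, and their log2 fold changes ran from -0.60 to 0.57 in the authors' deposited table. Beside Malat1 and Neat1 lie Ltbp3, a binding protein of latent TGF-beta, at -0.20 and Frmd8 at 0.38 in the authors' deposited table. The nearest tested genes of Miat are Tpst2, a tyrosine sulfotransferase, at 0.53 and C130026L21Rik at -0.10 in the authors' deposited table. They lie 47758 and 626074 bases from Miat, and some neighbours of other genes are as distant, such as Atp11b at 1076144 bases from the Sox2ot entry. Closer to Miat lie the lens crystallin gene Cryba4 and 1700028D13Rik, both untested.

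**Figure D2:**
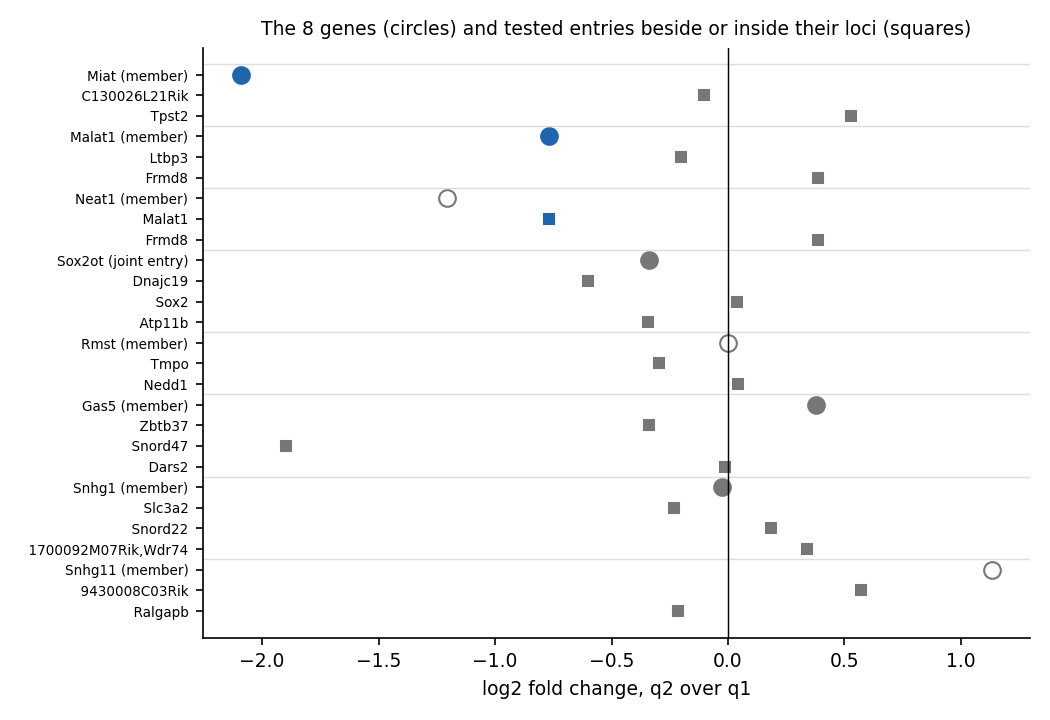
Each gene of the set (circles), with the nearest tested entry on each side, some of them distant, and those inside its locus (squares). The x axis is the log2 ratio of q2 to q1 from the authors' deposited table. Blue is called lower, grey not called and open not tested; Miat and Malat1 lie to the left of their flanking genes, while Snord47 inside Gas5 is at -1.90.

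Snhg1 lies 117 bases from the amino acid transporter gene Slc3a2, which stood at -0.23 in the authors' deposited table and was not called. Gas5 lies 906 bases from Zbtb37, at -0.34 in the authors' deposited table, also without a call. Inside the host genes, the small nucleolar RNA Snord47 of Gas5 was at -1.90 (p = 0.575) and Snord22 of Snhg1 at 0.19 (p = 0.705) in the authors' deposited table. The Snord47 statistic of -17.1 stands beside that large p in the authors' deposited table, so its implied error was not used. None of these 4 entries was called. Each host and its small RNA are listed with the same locus, and how reads were divided between them is not stated, so these values are uncertain.

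Other long noncoding RNAs place the members on a wider scale. By RefSeq biotype, 1751 single-symbol entries were long noncoding RNAs, of which 359 were tested and 17 called (4.74%), 14 lower and 3 higher. Protein-coding genes had 1064 of 11539 called (9.22%), 456 lower and 608 higher. The median implied error was 0.80 for long noncoding RNAs and 0.35 for protein-coding genes, and Malat1, Gas5, Snhg1 and Miat at 0.32 to 0.45 lay near the latter. These counts are a description, and the difference between the classes was not tested.

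Among the 358 tested long noncoding RNAs with a finite value, Miat had the 3rd largest statistic and Malat1 the 12th. Ordered from the lowest log2 fold change, Miat was number 7 and Malat1 number 58. The next 3 entries were chosen after their values were seen, because they stand at the ends of this class. E030003E18Rik was the lowest at -3.63, Mira was called lower and listed at 0 in q2, and Xist was the highest at 3.19 in the authors' deposited table. Xist, the RNA that coats the inactive X chromosome in female cells, thus differed 9.15-fold between the pooled conditions in the authors' deposited table. Its part in the members' differences was not tested.

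**Figure D3:**
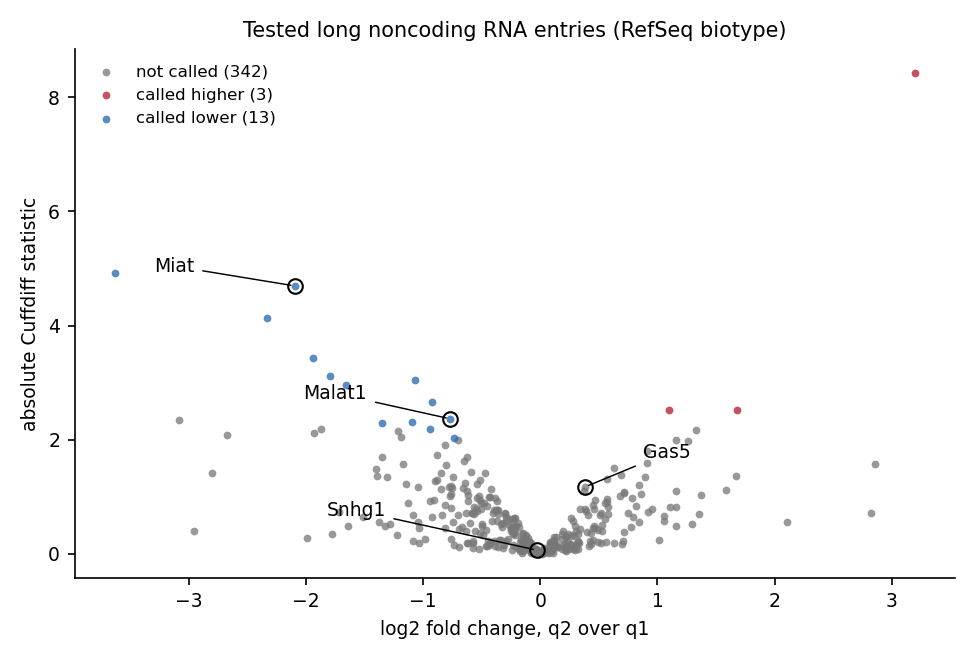
The 358 tested long noncoding RNA entries with a finite value, by log2 ratio of q2 to q1 (x axis) and size of the Cuffdiff statistic (y axis), both from the authors' deposited table. Blue marks 13 called lower, red 3 called higher and grey the rest; circled are Miat, Malat1, Gas5 and Snhg1, Miat with the 3rd largest statistic.

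For the other small nucleolar RNA host genes Cuffdiff gave 0 calls and 1 unadjusted p under 0.05 among 9 tested, and their median was 0.19. That sign did not hold over fewer genes. Over 6 of them the median was -0.13 with p read from the statistic and nothing removed, so the smaller set alone turned it. Over the same 6 it was -0.08 when centred, -0.03 with the length trend removed and 0.06 with the GC trend removed. It was -0.34 over the 3 with a locus of their own. Snhg4 stood at 0.63 and Snhg8 at -0.85 in the authors' deposited table. Other long noncoding RNAs of neural cells had 1 of 8 called, 1700020I14Rik, known as Cyrano, which was lower at -0.74 with a Cuffdiff q of 0.0498 in the authors' deposited table. That call did not hold at q under 0.01, with the minimum log2 change of 1, with normal p-values, when centred, or with the GC or length trend removed. C130071C03Rik, host of a miR-9 precursor, was at -0.36 and 2900097C17Rik, at the locus of Norad, at -0.32 in the authors' deposited table, neither called. Of the 7 genes in the list of imprinted long noncoding RNAs, which leaves out others such as Ipw, only Airn was tested, at 1.29 with an implied error of 2.50 according to the authors' deposited table, with 0 calls and 0 unadjusted p under 0.05 from Cuffdiff. Over all tested entries the median was -0.05, and 7.63% were called in either direction.

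No tested gene for the nuclear body proteins that work with these RNAs was called, beside 7.63% of all tested entries called in either direction. With lists this short, 0 calls says little about them. For paraspeckle proteins Cuffdiff gave 0 calls and 0 unadjusted p under 0.05 among 12 tested, and 1 of the 13 listed had no entry of its own. Their median was -0.03, with Hnrnpk at -0.32 and Pspc1 at -0.24 in the authors' deposited table. For nuclear speckle proteins the counts from Cuffdiff were 0 calls and 0 unadjusted p under 0.05 among 14 tested. Their median was 0.07, with Clk1, a kinase of splicing factors, at -0.38 and Rnps1 at 0.36 in the authors' deposited table. Proteins known to bind Miat, Rmst or Sox2ot had 0 calls and 1 unadjusted p under 0.05 from Cuffdiff among 5 tested, with a median of 0.04. That gene was Qk, which encodes the QKI protein, with -0.61 and a Cuffdiff q of 0.104 in the authors' deposited table, while Sf1 was at 0.09 and Hnrnpa2b1 at -0.25.

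For the host genes, the partners are the box C/D ribonucleoprotein, which assembles on intronic small nucleolar RNAs, and the decay machinery. In the box C/D list 1 of 10 tested was called higher, the U3-associated Rrp9 with 0.89 and a Cuffdiff q of 0.00719 in the authors' deposited table, and the median was 0.14. Rrp9 lost its call with the GC trend removed, with normal p-values and with the minimum log2 change of 1. The assembly ATPase gene Ruvbl1 was at 0.60 and the methyltransferase gene Fbl at 0.39 in the authors' deposited table, neither called. Nonsense-mediated decay factors had 0 calls and 0 unadjusted p under 0.05 from Cuffdiff among 13 tested, beside 7.63% of all tested entries called. Their median was -0.01, and Upf2 and Upf3a stood at -0.47 and -0.38 in the authors' deposited table.

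**Figure D4:**
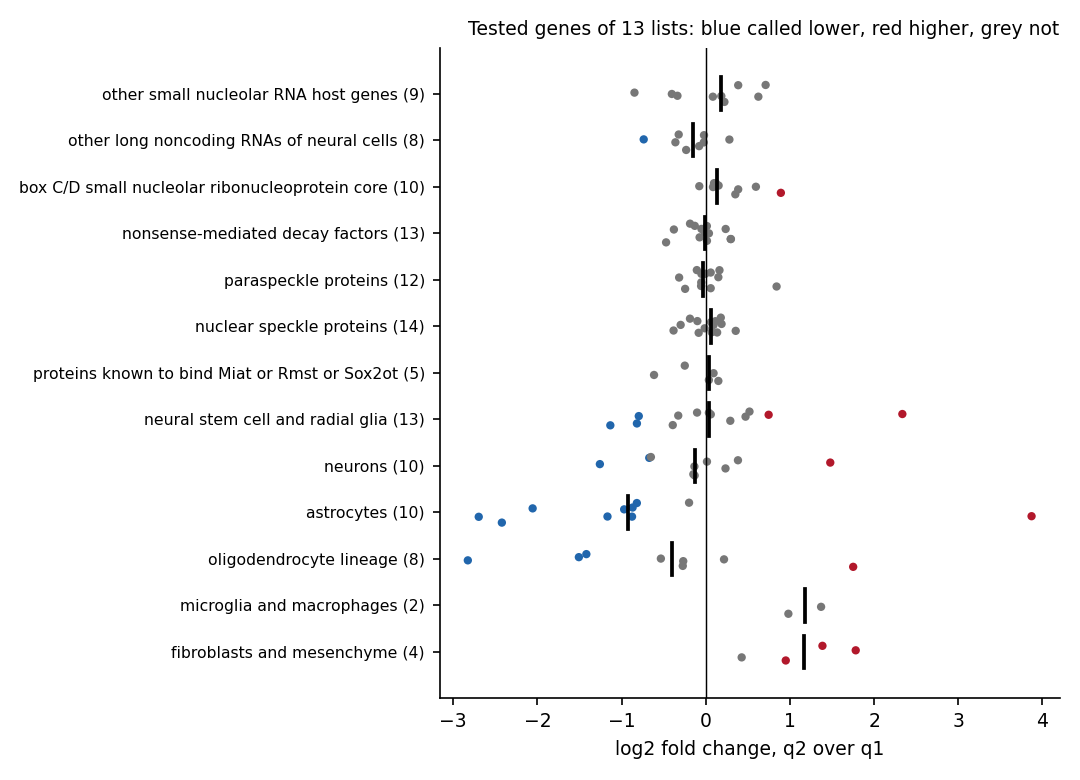
Tested genes of 13 lists (y axis, with how many were tested) by log2 ratio of q2 to q1 (x axis) from the authors' deposited table. Each point is a gene, blue called lower, red called higher and grey not called, and bars are medians; the paraspeckle, speckle and decay lists cluster at 0, and astrocyte markers have a median of -0.92.

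Marker genes of several cell types were called in the same contrast, in which 7.63% of all tested entries were called. Of neural stem cell and radial glia markers 13 of 14 were tested, with a median of 0.04. Tnc at 2.34 and the filament gene Nes at 0.75 were higher, and 3 were lower, among them Fabp7 at -1.13 and the Notch target Hes5 at -0.82, by the authors' deposited table. Markers of neurons, cells in which Miat and Snhg11 are well known, had 10 of 15 tested and a median of -0.13. Syt1 at 1.48 was higher, and Elavl3 at -1.26 and Dpysl3 at -0.67 were lower, by the authors' deposited table. Astrocyte markers had 8 of 10 called lower, Ndrg2 at -2.42, Aqp4 at -2.70 and Gfap at -2.06 among them, and Sparcl1 higher at 3.87 by the authors' deposited table, with a median of -0.92. The oligodendrocyte lineage had 8 of 11 tested, with a median of -0.40. Of these 3 were lower, among them Pdgfra at -2.83 and Gpr17 at -1.42, and Mbp was higher at 1.75 by the authors' deposited table. Of 9 fibroblast and mesenchyme genes only 4 were tested, and the other 5 have no test. Among the tested genes 3 were higher, Fn1 at 1.78, Fbn1 at 1.39 and Acta2 at 0.95 by the authors' deposited table. The median over the 4 tested was 1.17. Microglia and endothelial genes were tested for 2 of 10 (Cd68 at 0.98 and P2ry12 at 1.37) and 1 of 8 (Kdr at 0.71) by the authors' deposited table, and Cuffdiff gave 0 calls and 0 unadjusted p under 0.05. Summed marker levels per group are not given, since levels were not used. What part these cells have in the lower Miat and Malat1 was not tested, and in such bulk RNA fewer cells of a type and less RNA per cell cannot be told apart.

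GC content separates the members. The median transcript GC content was 41.0% for Malat1, 42.3% for Gas5 and 41.3% for Snhg1, at percentiles 4.76, 8.29 and 5.39 of the tested genes, and 56.9% for Miat, at percentile 84.2. With the GC trend removed, the low-GC members moved up, Gas5 to 0.64 (Benjamini-Hochberg q = 0.0699) and Snhg1 to 0.26, and Miat moved down.

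**Figure D5:**
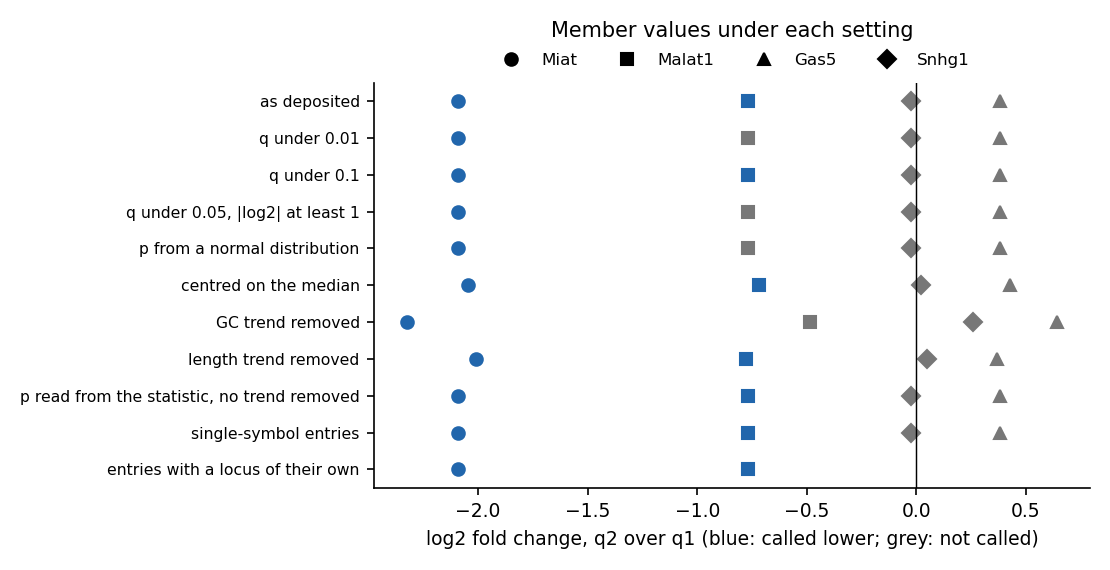
Miat, Malat1, Gas5 and Snhg1 under each setting (y axis), by log2 ratio of q2 to q1 (x axis). Blue symbols are called lower and grey not called; Miat is called in every row, while Malat1 is grey in 4 rows, among them the one with the GC trend removed, where it lies at -0.49.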

How the data were processed

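RNA of 4 libraries, 2 per hairpin, was measured after poly(A) selection and library preparation with a SOLiD kit, per the labels' protocols. TopHat2 2.0.9, Cufflinks 2.2.1 and Cuffdiff were run on build mm10, per the submitters' processing notes. For the annotation, the filters and strand, the sources used here give nothing. The authors deposited 1 table of 26815 entries, 15315 of them tested. Per the file headers it holds log2 fold changes, a test statistic (a score), p-values and q-values, all made by the authors. Adjusting the deposited p-values by Benjamini-Hochberg over all tested entries returned the deposited q-values within a relative difference of 4.62e-06. Another 2 columns, of values per condition, could be matched to neither hairpin and were left out by choice, so no levels are given. Depth and precision are unknown. Replicates are passages of the cells, so the p-values cannot cover a spread wider than that between such passages. The calls are those of Cuffdiff.

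An implied error is the log2 fold change divided by the statistic. Starts were converted to count from 1. Entries took a biotype from the GRCm38.p6 RefSeq table by symbol or unique synonym (23001 of 23116 single-symbol entries). Transcript GC content (median) and length (longest) came from GENCODE M21 by symbol, for 95.6% of tested single-symbol genes. Medians in 50 bins were subtracted for 11476 genes with transcripts of at least 200 bases, and p was read from the authors' relation of p to statistic. These steps were run on simulated data with noise drawn from that same relation. Such a run cannot show that the relation holds for each gene. Members and lists were chosen with earlier results of these data known. Named genes are the 8, up to 4 called genes per list or, with fewer than 2 called, up to 2 more with the largest statistic, the neighbours and Foxp1. A gene that the rule takes is not reported here. RefSeq promoters were found for 5 of the 8. Alternatives were other q thresholds, a minimum fold, normal p-values, centring, trend removal, single-symbol entries and entries with their own locus. The software was Python 3.11.15 with numpy 2.4.6, pandas 2.3.3, scipy 1.17.1, matplotlib 3.10.9 and scikit-learn 1.9.0.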

Additional observations from a re-analysis of the deposited data

How the results depend on the processing

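Members called lower numbered 2 as deposited and 1 at q under 0.01, with a minimum log2 change of 1, with normal p-values and with the GC trend removed; Miat kept its call in all alternatives run and Malat1 lost it in these 4. Reading p from the statistic with no trend removed, added after seeing the data, left 2, so the reading of p alone did not end the Malat1 call. Counting the joint Sox2ot entry, also added later, left 2 lower and 0 higher. Snhg1 turned positive at 0.023 when centred, 0.26 with the GC trend removed and 0.050 with the length trend removed, always uncalled. Across the other long noncoding RNA lists and the partner lists, which leave out the members, 2 of 70 tested entries were called as deposited. These were 1700020I14Rik and Rrp9, beside 7.63% of all tested entries called in either direction. That count of 2 became 1 at q under 0.01, when centred and with the length trend removed. It was 0 with a minimum change of 1, with normal p-values and with the GC trend removed. Other thresholds and normal p-values cannot move a list's median. The medians of the paraspeckle and decay lists, close to 0, turned positive when centred (0.020 and 0.036) and with either trend removed, and that of the binding proteins was -0.08 over the 4 entries with their own locus. Over all entries, calls went from 1168 to 425 with normal p-values, 667 at q under 0.01 and 687 with the minimum change. The share of higher calls was 55.6% over the 15315 entries as deposited. Over the 11476 genes of the corrections, it was 56.4% with p read from the statistic and nothing removed, and 63.3% when centred. Among entries with their own locus, Gas5 and Snhg1 were left out, because small nucleolar RNA entries overlap them. No paired analysis was possible because the columns carry no values per library, and leaving out replicates was not run for the same reason; pseudocounts and low-value filters were not run because levels were not used.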
